A study of Homo sapiens with 8 samples.

Results

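The genome-wide sites of dnTCF1Emut, the C-clamp mutant of a dominant negative TCF1E, were compared between 2 and 9 h of induction. The comparison covered 1883 peaks listed at 2 h and 354 peaks listed at 9 h, 2237 of the 23433 peaks in the 6 lists of the study. A 2 h peak was called kept if a 9 h peak overlapped it by any number of bases, and the remaining peaks were called only 2 h or only 9 h. Of the 1883 peaks listed at 2 h, 234 were kept (12.4%, 95% Wilson interval 11.0 to 14.0%) and 1649 were only 2 h. This share was limited by the length of the 9 h list, and with the 2 h list cut by score to 354 peaks it was 38.1%. Of the 354 peaks listed at 9 h, 233 overlapped a 2 h peak (65.8%, 60.7 to 70.6%) and 121 were only 9 h.

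FLAG-tagged dnTCF1Emut was expressed from a doxycycline-inducible construct in a clonal line of DLD-1 cells, a human colon cancer line with constitutively active Wnt signaling, and ChIP-seq was performed with anti-FLAG beads after 0, 2 or 9 h of 1 µg/mL doxycycline. The protein lacks the part of TCF1E that binds β-catenin and carries a substitution that abolishes DNA binding by the C-clamp, so the HMG box is its remaining DNA binding domain. A second clonal DLD-1 line expressed dnTCF1EWT, which has an intact C-clamp, and was sampled at the same times. Both lines therefore share the dominant negative form, the tag and the inducible system, and each line had its own 0 h condition without doxycycline. Duplicates of each condition were pooled before peak calling, which left 1 list per condition, and each protein was studied in 1 clone. No spread between replicates can be given, no test between conditions was made, and the intervals cover counting error only. Each peak carries the MACS score, which rises as the P-value falls and takes no account of how deeply a library was sequenced. Library depths are unknown here, so a change in the number or score of peaks and a change in depth cannot be told apart.

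TCF/LEF proteins are the nuclear factors through which Wnt signaling and β-catenin control transcription, and in the intestine they maintain the stem and progenitor cells of the crypt. The HMG box reads CTTTGWWS (W, A or T; S, C or G), the Wnt response element or WRE, and the C-clamp of the E-tail isoforms reads a GC-rich Helper site, RCCGCC or in short form RCCG (R, A or G). Dominant negative forms compete with the endogenous factors for such sites. A list of 44 genes known or proposed as Wnt targets served to follow the loci at which this competition has been studied.

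Sites near a TSS are shown by the examples of SP5 and KLRC3. The 2 h peak at SP5, a transcription factor gene induced by Wnt signaling, was lost at 9 h, whereas the peak at the first exon of KLRC3, a receptor gene of natural killer cells, was kept. These are single sites that differ in the motif that the HMG box reads, and they run against the direction over all sites that are not AT-rich, where WREs were more frequent in kept peaks. KLRC3 is one of several near-identical genes and is uncertain as a separate site. The 250 bases upstream of each RefSeq start (GRCh38.p14) are given, with matches to the WRE on either strand in capitals.
SP5 (chr2:170715087-170715336, plus strand): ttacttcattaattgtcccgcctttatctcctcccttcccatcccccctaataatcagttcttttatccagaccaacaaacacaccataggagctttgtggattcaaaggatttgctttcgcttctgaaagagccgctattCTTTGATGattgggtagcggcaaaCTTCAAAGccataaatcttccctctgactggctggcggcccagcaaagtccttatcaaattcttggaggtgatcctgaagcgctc
KLRC3 (chr12:10420596-10420845, minus strand): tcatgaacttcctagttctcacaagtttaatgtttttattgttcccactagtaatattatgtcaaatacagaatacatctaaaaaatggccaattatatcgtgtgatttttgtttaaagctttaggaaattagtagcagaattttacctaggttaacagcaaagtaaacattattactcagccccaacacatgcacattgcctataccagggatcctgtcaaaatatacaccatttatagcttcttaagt
The SP5 sequence held 2 WREs, 3 short Helper sites and 1 Helper site, and the KLRC3 sequence held no match to any of these motifs on either strand. Each Helper site also contains a short Helper site. Of 35116 RefSeq promoter windows of this length, 5.56% held a WRE, 74.2% a short Helper site and 35.9% a Helper site. These windows come from another genome build than the peaks, and their motif counts were not those of the peaks, which were made by the authors on hg19. The distance to the TSS was -275 bp for the SP5 peak and 144 bp for the KLRC3 peak. The KLRC3 peak was thus placed downstream of its start, outside the printed bases, so the 2 sequences do not compare the bound sites. In the peak itself, the authors' counts were 3 WREs and 2 Helper sites at SP5 and no WRE at KLRC3.

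Kept sites fell into a set with ordinary base composition and a set of AT-rich peaks with a GC content below 15%. Among the 2 h peaks with a GC content of 15% or more, 140 of 1490 were kept (9.40%, 8.02 to 11.0%), and among the AT-rich peaks 94 of 393 were kept (23.9%, 20.0 to 28.4%). AT-rich peaks made up 20.9% of the 2 h list and 35.0% of the 9 h list. At 0 h they made up 82.9% of the 708 dnTCF1Emut peaks, and the dnTCF1EWT lists held between 0 and 4 of them. No kept site joined an AT-rich peak of one list with another peak of the other. On the AT-rich side of the limit, the nearest 2 h peaks had GC contents of 14.2% near BASP1P1, 14.3% near LINC00333 and 14.7% near RAB3C, of which only that near BASP1P1 was kept. On the other side, those near GPR32, MIR146A and CRISP1 had 15.03, 15.1 and 15.5% and were only 2 h. At 9 h the peaks next to the limit had 14.3% near ARHGAP12, 14.9% near BAI3 and 14.96% near ACPP on the AT-rich side, and 15.6% near MIR592, 15.9% near APLF and 16.4% near LOC100270679 on the other. The 2 sets are described apart below, starting with the peaks that are not AT-rich.

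The strongest kept sites of ordinary base composition lay in introns and between genes, and several of them held many WREs. The highest score at both times was found between genes, at -37928 bp from the TSS of SYK, a tyrosine kinase of immune receptor signaling (chr9:93525822-93526347, hg19), where the score was 2168.71 at 2 h and 974.95 at 9 h. This peak held no WRE and no Helper site of either length, and it was also listed for dnTCF1EWT, with scores of 617.06 at 2 h and 2055.92 at 9 h. The second highest 9 h score lay in the last intron of the gene with transcript NM_003185, upstream of MIR1257 (chr20:60560851-60561663), with 10 WREs and scores of 975.77 and 368.30. SYK and MIR1257 were at ranks 1 and 2 of the 9 h list and at ranks 1 and 3 of the 2 h list.

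A site with 2 WREs (chr14:59191829-59192475) lay between genes, 86597 bp from the TSS of DACT1, which encodes a Dishevelled-binding regulator of Wnt signaling. It scored 477.39 at 2 h and 314.21 at 9 h. In an intron of ZNF638, a zinc finger gene, a site with 7 WREs in an LTR22A element (chr2:71615176-71615788) scored 947.16 and 289.56, and it was also listed for dnTCF1Emut at 0 h with a score of 67.32. At 82110 bp downstream of the start of ATP6AP1L, a site with 1 WRE (chr5:81682855-81683697) scored 924.44 and 265.41. All 3 scored lower at 9 h than at 2 h and were at ranks 3 to 5 of the 9 h list. An intergenic site with 3 WREs lay at -11399 bp from the TSS of CXADR, which encodes the coxsackievirus and adenovirus receptor. Its score was 851.37 at 2 h and 188.66 at 9 h, and dnTCF1Emut was listed there at 0 h with 109.47. An intronic site with 1 WRE, for which LRGUK was the nearest gene at -149621 bp from its TSS, had scores of 332.68 and 187.75. An intergenic site without a WRE lay 135373 bp from the TSS of CYP26A1, which encodes an enzyme that degrades retinoic acid. Its scores were 510.43 and 186.17, and it was listed for dnTCF1EWT at 9 h and not at 2 h.

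At 2 of the 10 kept sites with the highest 9 h scores, AT-rich sites aside, the score was higher at 9 h than at 2 h. In intron 1 of KIF21A, a kinesin gene, a site with 1 WRE (chr12:39821074-39821717) scored 211.22 at 2 h and 250.01 at 9 h. Nearest to HAS2, a hyaluronan synthase gene, 1 peak at 9 h with a score of 242.02 overlapped 2 peaks at 2 h. These scored 129.96 and 65.69 and lay in an LTR7B element without a WRE, at -140778 and -140412 bp from the TSS. The HAS2 site was listed for dnTCF1EWT at 9 h with a score of 470.33 and not at 2 h.

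Scores of kept sites were mostly lower at 9 h. Over all 234 kept sites the mean log2 ratio of the 9 h to the 2 h score was -1.07 (SD 0.85 over sites), 125 sites (53.4%) had a 9 h score of at most 50% of the 2 h score, and 25 sites (10.7%) had a higher score at 9 h. At the 140 sites that were not AT-rich, the mean log2 ratio was -1.25 (SD 0.96), with quartiles of -1.91 and -0.60, and 91 sites (65.0%) had at most 50% of the 2 h score. At the 94 AT-rich sites it was -0.80 (SD 0.57), and 34 sites (36.2%) had at most 50%. Because a site is listed only above a score of about 50, a site with a low score at 2 h cannot show a large decrease and remain listed. Among kept sites with a 2 h score of 100 or more, the mean log2 ratio was -1.55 (SD 0.73, n = 114) for the sites that were not AT-rich and -1.06 (SD 0.44, n = 66) for the AT-rich sites. A higher score at 9 h was found at 4 of the 114 sites and at none of the 66. Below a 2 h score of 100, sites that were not AT-rich had a mean log2 ratio of 0.10 (SD 0.59, n = 26), with 12 higher at 9 h. AT-rich sites below 100 had -0.20 (SD 0.36, n = 28), with 9 higher. The 2 h score is also the denominator of the ratio, so a split by it lowers the ratio in the higher group by selection alone.

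**Figure D1:**
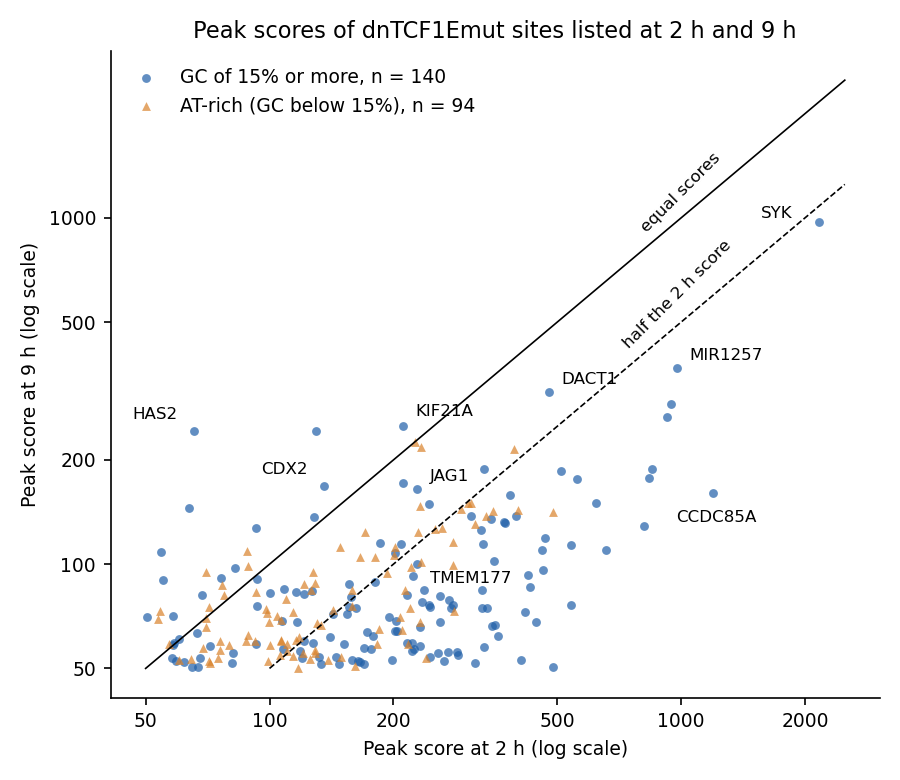
Peak scores of the 234 kept dnTCF1Emut sites at 2 h (horizontal axis) and 9 h (vertical axis), both on log scales, with 1 point per 2 h peak. The solid line marks equal scores and the dashed line a 9 h score at 50% of the 2 h score. Of the 140 sites with a GC content of 15% or more (circles), 91 lie on or below the dashed line, as do 34 of the 94 AT-rich sites (triangles).

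The order of the scores was kept only in part. Across the 140 sites that were not AT-rich, the log2 scores at 2 and 9 h had a Pearson's r of 0.50 and a Spearman's rho of 0.40, and across the 94 AT-rich sites they had 0.65 and 0.58. These sites share the same pair of libraries, so the coefficients describe the 2 lists. The 20 kept sites with 3 or more WREs fell from a median score of 364.1 at 2 h to 92.8 at 9 h. Their mean log2 ratio was -1.88 (SD 0.75), and none of them had a higher score at 9 h. The median 2 h score of all 140 sites was lower, at 209.75, and larger falls went with higher 2 h scores. No comparison at matched 2 h scores was made, so a part of the WREs in this fall was not tested. Among the 20 sites, that near CCDC85A (4 WREs in an L1MA8 element, chr2:57198238-57199306) had the second highest score at 2 h, 1199.16, and 160.51 at 9 h. The site near AKR1E2, with 6 WREs, fell from 409.05 to 52.86, and the site near SIRPA, with 11 WREs, from 658.34 to 109.80.

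The 5 sites with the largest increase from 2 to 9 h had low scores at 2 h, which a ranking by the ratio of 9 h to 2 h score favors. Beside HAS2, with log2 ratios of 1.88 and 0.90 for its 2 peaks, the score rose near ELK2AP, a pseudogene in the immunoglobulin heavy chain region, from 63.90 to 145.25. It rose from 54.51 to 108.64 in an intron of VIPR2, a receptor for vasoactive intestinal peptide, where the peak lay in an LTR49 element. In intron 2 of AHRR, which encodes the repressor of the aryl hydrocarbon receptor, it rose from 55.25 to 90.17, and dnTCF1Emut was also listed there at 0 h with 52.73. Near MIR3147 it rose from 50.52 to 70.25. Of these sites only that near MIR3147 held a WRE, and all but that near ELK2AP were listed for dnTCF1EWT at 9 h while none was listed for it at 2 h.

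The rank of a peak at 2 h went with whether it was kept. Of the peaks that were not AT-rich, 38 of 45 were kept among the 50 highest scores of the 2 h list (84.4%, 71.2 to 92.3%), 14 of 40 at ranks 51 to 100 (35.0%), 25 of 78 at ranks 101 to 200 (32.1%), 30 of 255 at ranks 201 to 500 (11.8%), 14 of 384 at ranks 501 to 1000 (3.65%) and 19 of 688 at ranks 1001 to 1883 (2.76%, 1.77 to 4.28%). AT-rich peaks were kept more often in each of these rank ranges. The shares were 5 of 5, 9 of 10, 16 of 22 (72.7%), 22 of 45 (48.9%), 25 of 117 (21.4%) and 17 of 194 (8.76%, 5.54 to 13.6%). The median 2 h score was 209.75 for kept peaks that were not AT-rich and 78.3 for the only 2 h peaks. Read from the 9 h list, 30 of the 32 peaks that were not AT-rich among its 50 highest scores were present at 2 h, and 46 of 104 at ranks 201 to 354 (44.2%, 35.1 to 53.8%).

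**Figure D2:**
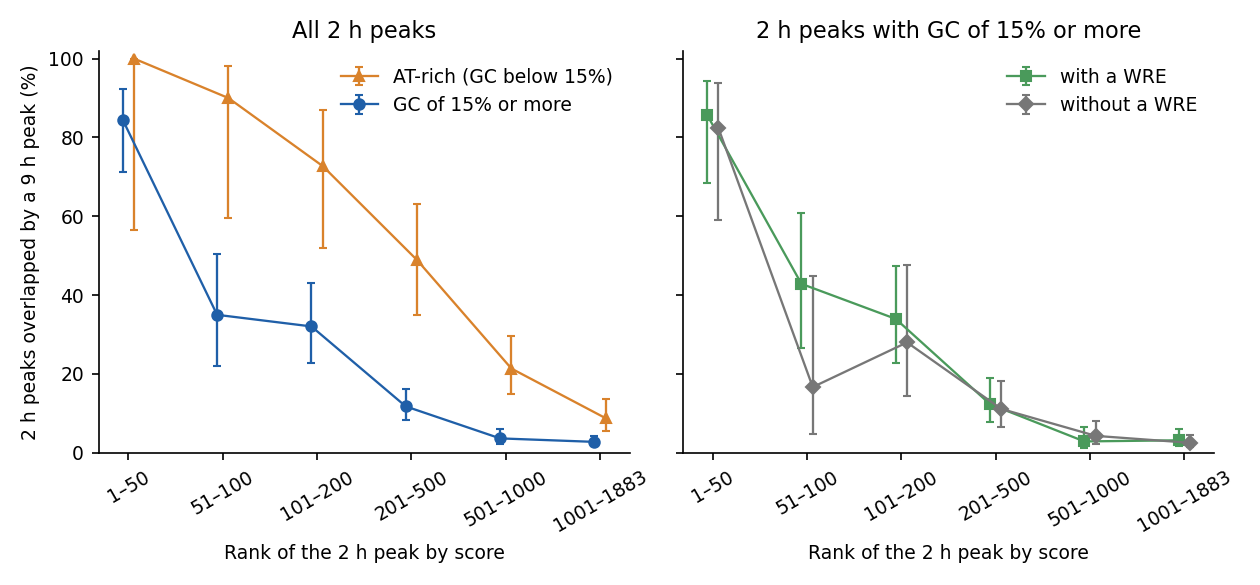
Share of dnTCF1Emut 2 h peaks overlapped by a 9 h peak (vertical axis, %) by their rank in the 2 h list (horizontal axis), with 95% Wilson intervals. On the left, AT-rich peaks lie above the other peaks in every rank range, from 5 of 5 down to 17 of 194. On the right, the shares of peaks with and without a WRE are 85.7 and 82.4% at ranks 1 to 50 and 42.9 and 16.7% at ranks 51 to 100, where the intervals overlap.

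Some of the highest scores at 2 h had no counterpart at 9 h. The strongest of the only 2 h peaks lay near the pseudogene FUNDC2P2 (chr2:84527282-84527839), with a score of 517.91 (rank 14), 4 Helper sites and no WRE, and dnTCF1EWT was listed there with 1046.04 at 2 h and 123.53 at 9 h. It was followed by a peak in intron 15 of ITGA9, an integrin gene, with a score of 504.23 and 1 WRE, and by an intergenic peak for which ACVR2A, an activin receptor gene, was nearest, with 483.62 and 1 WRE, and neither was listed for dnTCF1EWT. Peaks near RNU6-48 (448.54) and NACA2 (338.57) had no WRE. All 5 had 2 h scores within the range of the kept sites, of which 114 of 140 scored 100 or more, against 439 of 1350 only 2 h peaks (32.5%).

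Kept sites held the WRE more often than lost sites once AT-rich peaks were set aside, and most of this difference went with the score. A WRE was present in 84 of 140 kept peaks (60.0%, 51.7 to 67.7%) and in 590 of 1350 only 2 h peaks (43.7%), a difference of 16.3 percentage points (Newcombe interval 7.60 to 24.5). Over all peaks the shares were 36.3 and 35.9%, since only 1 of the 94 kept and 2 of the 299 lost AT-rich peaks had a WRE. The kept share rose with the number of WREs, from 56 of 816 peaks without one (6.86%) to 42 of 440 with 1 (9.55%), 22 of 162 with 2 (13.6%), 10 of 42 with 3 (23.8%) and 10 of 30 with 4 or more (33.3%, 19.2 to 51.2%). The median 2 h score of these groups rose in the same order, from 75.1 to 146.3, and the median length from 437 to 614 bp. Within the 6 rank ranges the mean difference in WRE share, weighted by kept peaks, was 5.48 points, a comparison added after the data had been seen. Peaks with and without a WRE were kept at 85.7 and 82.4% at ranks 1 to 50, at 42.9 and 16.7% at ranks 51 to 100 (12 of 28 and 2 of 12 peaks), and at 2.87 and 4.29% at ranks 501 to 1000.

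Sites of the C-clamp motif were also counted. Helper sites were found in 11 of 140 kept peaks (7.86%) and in 71 of 1350 only 2 h peaks (5.26%), a difference of 2.60 points with an interval of -1.06 to 8.36. Short Helper sites were found in 56.4 and 47.6%, a difference of 8.80 points (0.10 to 17.2). Kept peaks were also longer, with a median of 569.5 bp against 456 bp for only 2 h peaks. Their median GC content was 40.2% against 38.6%. A short GC-rich motif is met more often in longer and more GC-rich peaks, and the shares were not adjusted for this.

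Kept sites had a higher GC content than lost sites among the peaks that were not AT-rich. The median GC content was 40.2% in kept peaks (quartiles 36.9 and 44.1) and 38.6% in only 2 h peaks (35.2 and 42.1). Of the 61 peaks with a GC content of 50% or more, 16 were kept (26.2%, 16.8 to 38.4%), whereas 4 of 92 were kept at 15 to 30% (4.35%, 1.70 to 10.7%). The 16 kept peaks included those at ranks 23 and 25 of the 2 h list, both nearest to ASMT. They lay 149860 and 149846 bp from its TSS with GC contents of 51.3 and 51.2%, and are uncertain as separate sites. The median 2 h score of the peaks with 50% GC or more was 72.3, below the 86.8 of those with 35 to 40%, of which 52 of 577 were kept (9.01%). Of the peaks with 50% GC or more, 55.7% overlapped a dnTCF1EWT 2 h peak and 6.56% a dnTCF1Emut 0 h peak, and 31.1% had a WRE.

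The genomic position of kept sites was close to that of lost sites. Of the 140 kept peaks that were not AT-rich, 75 were intergenic (53.6%), 60 intronic (42.9%), 3 exonic and 1 at a promoter, and of the 1350 only 2 h peaks 763 were intergenic (56.5%), 551 intronic (40.8%), 11 exonic and 10 at promoters. The intergenic shares differed by -2.95 points, with an interval of -11.6 to 5.54. The median distance to the nearest TSS was 53.3 kb for kept and 56.8 kb for only 2 h peaks. LTR elements held 15.0% of kept and 13.2% of only 2 h peaks. Of the 21 kept peaks in LTR elements, those near HHIP, ZNF675, P2RY10, IPMK, FAM86EP, LOC100288392 and MRPL1 lay in MER11A or MER11B elements and held between 1 and 5 WREs. Others, such as those near HAS2 and VIPR2, lay in other LTR elements and held none. MER11 elements were not counted among the only 2 h peaks, so they are not shown to be particular to kept sites. Copies of a repeat share sequence, and reads can be placed at the wrong copy.

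Promoter peaks were rare among both kept and lost sites. They made up 0.43% of kept and 0.73% of only 2 h peaks, a difference of -0.30 points with an interval of -0.94 to 1.68. Of the 13 peaks that HOMER annotated as promoter at 2 h, 1 was kept, at TMEM177, which encodes a mitochondrial membrane protein (chr2:120435894-120436470). This peak held 5 WREs and 1 Helper site, with scores of 228.26 at 2 h and 99.90 at 9 h, and dnTCF1EWT was listed there with 1053.21 and 487.53. The lost promoter peaks included those of SP5 (152.92), CDCA7, a Myc-responsive gene (138.47), MIR10A (132.90), IGFL2 (123.55), CYB5R4 (114.10), TSPAN8 (58.74), CDH17, which encodes an intestinal cadherin (55.25), and YAP1, the coactivator of the Hippo pathway (52.41). At YAP1 dnTCF1EWT was listed with 494.43 at 2 h. Outside these annotations, 4 kept sites that were not AT-rich lay within 2 kb of a TSS. In the first exons of KLRC3, KLRC2 and KLRC4, a cluster of natural killer cell receptor genes, scores fell from 151.92 to 58.66, from 147.91 to 51.56 and from 115.71 to 83.31, and none of the 3 peaks had a WRE. These genes are near-identical copies, so that reads may be shared between them and the 3 sites are uncertain as separate sites. At NPAS4, a neuronal activity-dependent transcription factor gene, the score fell from 126.81 to 83.71 in a CpG island with 12 short Helper sites, and the site was listed in both 0 h lists, with 189.79 for dnTCF1Emut and 120.59 for dnTCF1EWT.

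Peaks near Wnt target genes were kept at a share that did not stand apart from that of all peaks. Of the 44 genes of the list, 16 were nearest to at least 1 of 29 peaks at 2 h, and 2 of these peaks were kept (6.90%, 1.91 to 21.96%). This interval holds the 12.4% of all 2 h peaks and the 9.40% of those that were not AT-rich. Of the 29 peaks, 2 were AT-rich. The 29 peaks had ranks from 132 to 1809, scores from 51.92 to 228.40 with a median of 86.1, and a WRE in 17 of them. The kept sites were at CDX2 and JAG1. In intron 1 of CDX2, the homeobox gene of intestinal identity, a peak with 1 WRE (chr13:28539971-28540350) had a score of 135.62 at 2 h and 168.16 at 9 h, and dnTCF1EWT was listed there with 1835.07 and 438.22. Upstream of JAG1, which encodes a Notch ligand, a peak with 2 WREs (chr20:10700072-10700782) had a score of 228.40 at 2 h and 164.42 at 9 h, and dnTCF1EWT was listed at 9 h with 95.78. These peaks were at ranks 17 and 18 of the 9 h list. CDX2 was thus among the 25 kept sites with a higher score at 9 h.

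Of the 14 feedback regulators and inhibitors of the list, 4 had peaks at 2 h and none at 9 h. These were the secreted inhibitor DKK1 (214.12 and 71.84), SP5 (152.92), the secreted inhibitor WIF1 (97.72) and RNF43, a ligase that removes Frizzled receptors (72.31 and 55.97). Of the 4 TCF/LEF genes, TCF7L2 had a peak of 53.65 in an intron at 2 h and none at 9 h. Of the 13 genes of crypt transcription factors, cell cycle and patterning, 7 had peaks at 2 h, among them TBX3 (144.52 and 3 lower peaks), ETS2 (133.66 and 66.61), MYC (86.06), a second peak of JAG1 (79.21) and 4 peaks of SOX9 between 51.92 and 57.70, of which 2 were AT-rich. All of these were only 2 h. Of the 13 signaling and other targets, FZD7, a Frizzled receptor (181.14), BMP4 (160.58), RHOB (156.32 and 2 lower peaks) and TGIF1 (135.29) had only 2 h peaks. Among the 27 lost peaks of the list, 6 overlapped a dnTCF1EWT 9 h peak. This share was larger than in all only 2 h peaks, where 179 of 1649 did (10.9%). It was also larger than in those that were not AT-rich, where 179 of 1350 did (13.3%). The difference was not tested. A nearest gene gives the position of a peak and does not show that the gene is regulated from it.

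Counted by nearest gene, more was shared between the times than by peak. The 2 h peaks had 1484 nearest genes and the 9 h peaks 330, and 246 genes were in both lists, 16.6% of the 2 h genes and 74.5% of the 9 h genes. A kept site lay near 225 genes, of which 77 also had an only 2 h peak. For 22 genes, an only 2 h peak and an only 9 h peak at different positions shared the gene as nearest, and 20 of these genes lay outside chromosome Y. The peaks of such a pair can lie far from each other and from the gene. The number of pairs to be met from nearest genes alone was not worked out. At AREG, which encodes the EGF receptor ligand amphiregulin, 5 only 2 h peaks with scores from 76.09 to 144.85 and 2 kept sites were joined at 9 h by a peak of 61.78 with 2 WREs, which dnTCF1EWT shared at 9 h with 136.21. In introns of RORA, a nuclear receptor gene, 4 only 2 h peaks between 71.78 and 224.57 were lost, and a peak of 61.37 was found in intron 2 at 9 h, where dnTCF1EWT had been listed at 2 h with 387.29. For MSX2, a homeobox gene, a peak of 63.64 at -269746 bp from the TSS was lost, and another of 55.50 at -202496 bp was listed at 9 h. SNTB1, PCNX, FSIP2, LINC00161, HSP90AA4P, LOC642236, LOC100506585 and LOC401177 also had such pairs in which neither peak was AT-rich, with 9 h scores between 50.51 and 83.25. At PER4, FHOD3, XIRP2, STOML3, HSP90AB2P, HOMER1, LOC91948, LOC389906 and FRMPD4, at least 1 peak of the pair was AT-rich. At XIRP2, STOML3 and HSP90AB2P, a 2 h and a 9 h peak were close neighbors in simple repeats that overlapped a dnTCF1Emut 0 h peak of the same score (234.36, 279.83 and 98.43), so these pairs are parts of a single repeat site.

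Sites listed only at 9 h were weak, far from genes and poor in WREs. The 91 only 9 h peaks that were not AT-rich had a median score of 56.2 and a highest score of 136.37, and 4 of them scored 100 or more. A WRE was present in 25 of the 91 (27.5%, 19.4 to 37.4%) and in 81 of the 139 kept 9 h peaks (58.3%), a difference of -30.8 points (-42.1 to -17.8). Of the only 9 h peaks 74 were intergenic (81.3%, against 53.2% of the kept 9 h peaks, a difference of 28.1 points with an interval of 15.8 to 38.7), and the median distance to a TSS was 103 kb against 52.5 kb. Satellite repeats held 12 of them (13.2%), none of the kept peaks and 4 of the 1350 only 2 h peaks, and simple repeats held 13 (14.3%, against 5.04%). The strongest lay near FAM75C1 (136.37) and FAM75C2 (113.19). These peaks lay in copies of the same LTR element, with equal length, GC content and motif counts, and are uncertain as separate sites. Alpha satellite held the peaks near LINC00273 (122.33, chr16:33983630-33987721) and EMB (113.17, chr5:49551468-49552655). Upstream of PODXL, which encodes podocalyxin, a peak with 1 WRE scored 99.42, and dnTCF1EWT was listed there with 296.83 at 2 h and 100.36 at 9 h. Without satellites and simple repeats, a comparison added after the data had been seen, the difference in WRE share was -35.6 points.

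Only 9 h peaks were mostly not shifted copies of 2 h peaks. Of all 121, 4 lay within 500 bp of a 2 h peak, 6 within 5000 bp and 13 within 50000 bp. The score of a 2 h site below the limit of listing is unknown, so a peak absent from the 2 h list may have been just under that limit.

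**Figure D3:**
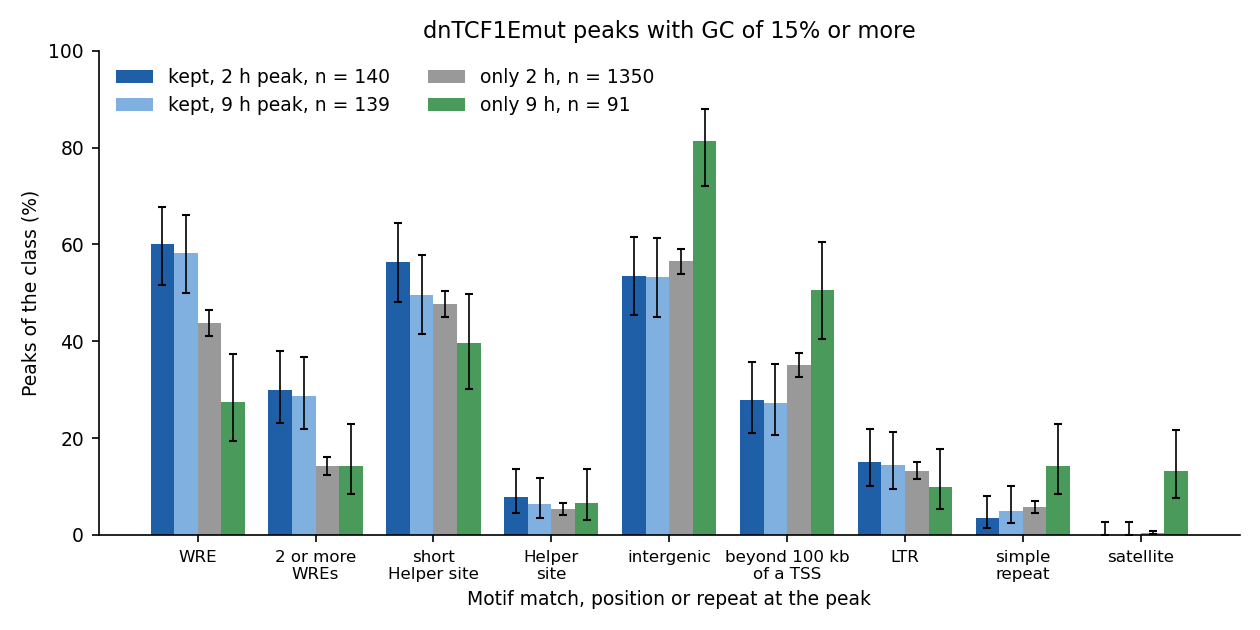
Share of dnTCF1Emut peaks with a GC content of 15% or more that hold a motif, lie at a position or lie in a repeat (vertical axis, % of the class), with 95% Wilson intervals, for kept sites by their 2 h and 9 h peaks, for only 2 h and for only 9 h peaks. WREs are in 60.0% of kept 2 h peaks, 43.7% of only 2 h peaks and 27.5% of only 9 h peaks, and satellites in 13.2% of only 9 h peaks and none of the kept peaks.

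Kept sites were also the sites most often listed for dnTCF1EWT. Of the 140 kept sites that were not AT-rich, 91 overlapped a dnTCF1EWT peak at 2 h (65.0%, 56.8 to 72.4%) and 77 at 9 h (55.0%, 46.7 to 63.0%). For the 1350 only 2 h peaks these shares were 32.2 and 13.3%, and for the 91 only 9 h peaks 6.59 and 12.1%. The differences between kept and only 2 h peaks were 32.8 points (24.2 to 40.6) at 2 h and 41.7 points (33.3 to 49.9) at 9 h. Within rank ranges, peaks with and without a dnTCF1EWT 2 h peak were kept at 85.7 and 80.0% at ranks 1 to 50, at 41.4 and 18.2% at ranks 51 to 100, at 35.8 and 24.0% at ranks 101 to 200, at 13.2 and 10.1% at ranks 201 to 500, at 5.79 and 2.66% at ranks 501 to 1000, and at 3.29 and 2.61% at ranks 1001 to 1883. Both dnTCF1EWT lists held 58 of the 140 kept sites, of which 42 had a WRE, and neither list held 30, of which 12 had a WRE. At the 58 sites the median log2 ratio of the 9 h to the 2 h score was -1.17 for dnTCF1EWT and -1.41 for dnTCF1Emut, and the score was higher at 9 h at 8 sites for dnTCF1EWT and at 5 for dnTCF1Emut. The proteins were studied in separate clonal lines and libraries, so differences between them and between the lines cannot be told apart.

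The dnTCF1EWT lists were compared in the same way. With all peaks, 833 of 5585 dnTCF1EWT 2 h peaks overlapped a 9 h peak (14.9%, 14.0 to 15.9%). With its lists cut by score to the lengths of the dnTCF1Emut lists, 209 of 1883 did (11.1%, 9.76 to 12.6%). In these cut lists a WRE was present in 54.1% of kept and 33.2% of lost peaks, a difference of 20.9 points (13.7 to 27.8). A Helper site was present in 28.2 and 11.9%, a difference of 16.3 points (10.4 to 22.9). For Helper sites dnTCF1Emut had 0.40 points (-1.93 to 4.02) over all peaks and 2.60 points (-1.06 to 8.36) without AT-rich peaks. The difference between the 2 proteins in these values was not tested.

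AT-rich kept sites were mostly listed in the uninduced cells as well. Of the 94, 87 overlapped a dnTCF1Emut 0 h peak (92.6%, 85.4 to 96.3%), against 211 of 299 AT-rich only 2 h peaks (70.6%) and 14 of 30 AT-rich only 9 h peaks (46.7%). None of the 94 was listed for dnTCF1EWT at any time. Simple repeats held 84 of them (89.4%) and 69 were (TA)n repeats (73.4%), with a median GC content of 4.89% and a WRE in 1. At the 87 sites listed at all 3 times the median score was 221.9 at 0 h, 128.9 at 2 h and 73.2 at 9 h. The score was higher at 2 h than at 0 h at 16 of them and higher at 9 h than at 2 h at 8. The highest AT-rich scores at 2 h were near ARHGEF37 (566.82 at 0 h, 487.54 at 2 h and 141.81 at 9 h), CDH11 (217.66, 401.75 and 142.99) and MIR302F (598.66, 393.74 and 215.78). At 9 h the highest were near LOC729852 (434.54, 225.39 and 225.13), OR7E156P (251.59, 233.84 and 217.76) and MIR302F. All of these lay in simple repeats. Of the kept sites that were not AT-rich, 7 of 140 overlapped a dnTCF1Emut 0 h peak and 2 a dnTCF1EWT 0 h peak.

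**Figure D4:**
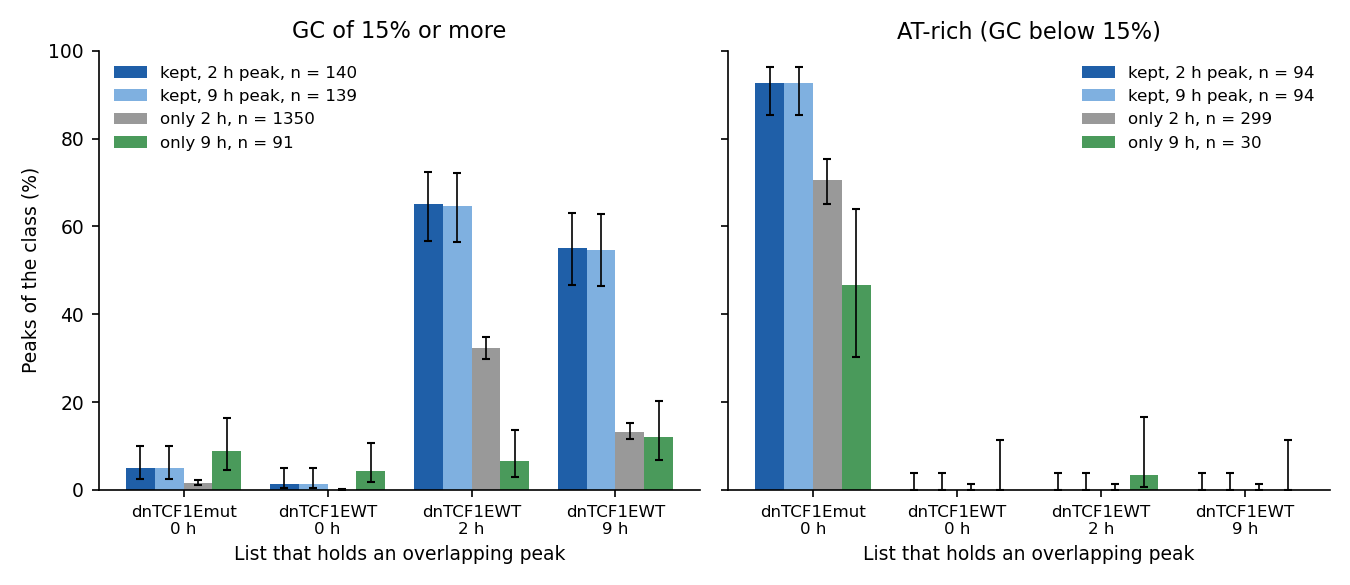
Share of kept, only 2 h and only 9 h dnTCF1Emut peaks that overlap a peak of each of the 4 other lists (vertical axis, % of the class), with 95% Wilson intervals, for peaks with a GC content of 15% or more (left) and AT-rich peaks (right). On the left 65.0% of kept 2 h peaks overlap a dnTCF1EWT 2 h peak, and on the right 92.6% overlap a dnTCF1Emut 0 h peak while none overlaps a dnTCF1EWT peak.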

How the data were processed

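Peaks of FLAG ChIP-seq in DLD-1 cells were analysed from lists deposited by the authors. Per the labels' processing notes, CASAVA 1.8.2, Bowtie2 2.0.0, MACS 1.3, HOMER 3.16 and hg19 were used, and per the study's methods duplicates were pooled before peak calling, although the labels call most libraries first replicates. Peak scores, as deposited, are those of MACS, the deposited GC content is a fraction (given here in percent), and motif counts per peak are those of HOMER. Each annotated list held the same peaks as its BED file. Depth is unknown and input libraries were not used here. Peaks were overlapped by any base on hg19, and the highest-scoring partner supplied the score. Percentages carry Wilson and their differences Newcombe 95% intervals. Overlaps were tested on simulated data with planted positions. Promoter sequences are from RefSeq (GRCh38.p14). The members, the gene list and the AT-rich limit were chosen with earlier results of these data known. Named genes are those nearest to the highest scores and ratios of each class, the Wnt list, genes with peaks at different positions, peaks next to the GC limit, and promoter, WRE-rich and LTR sites, the last 3 chosen after their values were seen. Alternatives changed the overlap, score threshold, list length, chromosome Y, AT-rich and 0 h peaks. Calculations were made with pandas 2.3.3, NumPy 2.4.6 and SciPy 1.17.1 in Python 3.11.15, and plots with matplotlib 3.10.9.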

Additional observations from a re-analysis of the deposited data

Results flagged for a closer look

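The number of listed peaks moved in opposite directions in the 2 cell lines between 2 and 9 h. The log2 ratio of 9 h to 2 h peaks was -2.41 for dnTCF1Emut (1883 to 354 peaks) and 1.22 for dnTCF1EWT (5585 to 12996 peaks). Each side is 1 pair of pooled lists, the difference was not tested, and the scores are not scaled for depth.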

How the results depend on the processing

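No paired analysis was possible because each condition is 1 pooled list, and for the same reason no replicate could be left out. Of 74 alternative values, 43 stayed within the counting interval of the reported value or, on another scale, kept its sign, and none of the differences whose interval lay apart from 0 changed sign. Without AT-rich peaks, the share of 2 h peaks kept was 9.40%, the share of 9 h peaks listed at 2 h 60.4%, the WRE difference between kept and only 2 h peaks 16.3 points, that between only 9 h and kept peaks -30.8 points, the difference in median GC 1.65 points (-1.35 with them), the mean log2 score ratio -1.25 and the share of kept sites with a dnTCF1EWT 9 h peak 55.0% (32.9% with them). Without peaks that overlap a 0 h peak, these were 8.93%, 59.0%, 16.8, -32.6, 1.49, -1.23 and 52.5%. With the 2 h list cut to 354 peaks, both shares were 38.1%, the only 9 h WRE difference -26.1 points, the intergenic difference 9.19 points (1.86 with all peaks), the log2 ratio -1.57 and the dnTCF1EWT share 40.7%. Above a score of 67 the shares kept and listed at 2 h were 10.8 and 77.3%, and at 100 or more they were 8.74 and 86.8%, with a dnTCF1EWT share of 44.1%. With an overlap of 50% of both peaks, 59.0% of 9 h peaks were listed at 2 h. The WRE difference between kept and only 2 h peaks was 0.42 points over all peaks, -8.97 within 4 equal ranges of rank and 9.45 within GC strata. Of the alternatives chosen after seeing the data, GC strata without AT-rich peaks gave 15.6 points, leaving out satellites and simple repeats -35.6 points for only 9 h peaks, and sites with a 2 h score of 100 or more a log2 ratio of -1.37. The cause of these changes was not tested. Since scores are not scaled, the shorter 9 h list limits which sites could be seen as kept.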
